A study of Mus musculus with 6 samples.

Results

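Hox genes encode homeodomain transcription factors and were examined here as the rows of the deposited expression table whose gene name is a Hox gene of cluster A, B, C or D or an opposite-strand transcript named after one. There were 31 such rows among 15711 genes, 29 of them protein coding and 2 antisense (Hoxa11os and Hoxd3os1). Cluster A gave 12 rows, cluster B 5, cluster C 9 and cluster D 5. The GENCODE M21 annotation holds 39 coding Hox genes. The other 10, namely Hoxb1, Hoxb2, Hoxb3, Hoxb5, Hoxb13, Hoxd1, Hoxd3, Hoxd11, Hoxd12 and Hoxd13, were not analysed here. Cluster A lies on chromosome 6, B on chromosome 11, C on chromosome 15 and D on chromosome 2.

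In each cluster the genes stand in a fixed order, given by the paralog number, and in the embryo this order runs with the head-to-tail order of the body regions in which they are active. Low numbers act in the hindbrain and neck, middle numbers in the trunk, and high numbers in the lower trunk and the far parts of the limbs. Fibroblasts of adult connective tissue keep a pattern of Hox expression that reflects where in the body they came from, also in culture. Tendon cells of the limb arise from limb bud mesenchyme, in which the late members of clusters A and D pattern the limb segments.

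The libraries came from mouse tendon stem/progenitor cells, fibroblast-like cells of tendon that can be grown in culture. In the 3 labelled-positive libraries the cells were Col1α1+Vldlr+ TSPCs, and in the 3 labelled-negative libraries they were Col1α1+Vldlr- TSPCs. All 6 carried a Cre driven by a type I collagen promoter together with YFP. The genotype label reads Col1α1-Cre;YFP in the first sample and its number counts up to 6 over the samples, which was read as 1 genotype. Both groups were cultured in serum after the sort, no age or further treatment is given, and the labels do not say whether the libraries of a group came from separate animals or cultures, so that p-values measure the spread between these libraries, which may be technical.

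Reads worked out from the values summed to 17660241 to 17719560 per labelled-positive library and to 17280540 to 17348846 per labelled-negative one. The groups are named as labelled because the 3 labelled-negative values of Vldlr did not equal whole numbers of reads, so that the sorting gene offered no check of its own labels. Of 13 tendon fibroblast markers 9 were higher, 3 lower and 1 not called in the labelled-positive libraries, and their sum was 11524 to 12482 RPKM there, against 3662 to 3868 RPKM in the labelled-negative libraries. The matrix genes Thbs4 (453-fold), Fmod (10.96-fold) and Comp (7.80-fold) were the farthest higher and the tendon factors Scx and Mkx were higher by 1.24-fold and 1.42-fold, while Tnmd (3.95-fold), Pdgfra (1.56-fold) and Prrx1 (1.24-fold) were lower. Markers of other cells differed between the groups. Summed over 13 macrophage markers the level was 28.0 to 35.8 RPKM in the labelled-positive libraries, against 578 to 702 RPKM in the labelled-negative ones, with Tyrobp at 0 in all 3 labelled-positive ones. All 12 tested were lower, but 9 of them were under 1 RPKM in every labelled-positive library and so were tested only because they were high in the labelled-negative ones. Over 9 Schwann and neural crest markers the sum was 129 to 141 RPKM (labelled-positive) against 20.8 to 22.7 RPKM (labelled-negative). Of 8 tested 7 were higher, but S100b was 3.42-fold lower, at 4.50 ± 0.819 RPKM (labelled-positive) against 15.4 ± 0.307 RPKM (labelled-negative). Over 10 endothelial markers the sum was 18.2 to 19.1 RPKM (labelled-positive) against 4.28 to 5.12 RPKM (labelled-negative). Of 7 tested 6 were higher. Tek was 7.10-fold lower, at 0.496 ± 0.0685 RPKM (labelled-positive) against 3.52 ± 0.309 RPKM (labelled-negative), and passed the filter only through the latter. Of the markers called higher, 6 Schwann and 6 endothelial ones were under 1 RPKM in every labelled-negative library, so that the filter largely fixed their direction. The part of other cell types in the Hox differences was not tested. In bulk RNA, fewer cells of a type and less RNA per cell cannot be told apart.

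Values below are RPKM, that is, reads divided by exon length in kilobases and by an effective library size. As worked out from the values, this size was not the total reads of the library. It was the total multiplied by a composition factor, 0.931 to 0.938 in the labelled-positive libraries and 1.073 to 1.078 in the labelled-negative ones. The main comparison kept this scaling of the deposited values, and total-read scaling, run as an alternative, divided by the total reads instead. A gene was tested when at least 3 libraries reached 1 RPKM, and a difference is the labelled-positive minus the labelled-negative mean of log2(RPKM + 1), which understates the change of low genes. It was called at a limma adjusted p under 0.05, adjusted over all 12116 genes tested. Folds are ratios of mean RPKM.

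Hox expression was dominated by paralog group 10 in both groups of cells. Hoxc10, a gene of the lumbar region and hindlimb in the embryo, was the highest, and Hoxa10, which patterns the lumbar spine and the upper limb segment, came second. Hoxc10 (chromosome 15, 102966796 to 102971893, GRCm38, plus strand) had 28.1, 30.6 and 28.7 RPKM in labelled-positive replicates 1 to 3, against 32.3, 30.5 and 34.3 RPKM in labelled-negative replicates 1 to 3. The groups overlapped, and the difference of -0.15 (SE 0.06) was not called (adjusted p = 0.069). Hoxa10 (chromosome 6, 52231197 to 52240854, minus strand) had 22.8, 24.3 and 21.2 RPKM in the labelled-positive libraries, against 24.4, 24.9 and 26.4 RPKM in the labelled-negative ones. The Hoxa10 groups stood just apart, with a difference of -0.14 (SE 0.06, adjusted p = 0.085). Both genes were called lower when libraries were scaled by total reads (adjusted p = 0.0022 for Hoxa10 and 0.0019 for Hoxc10) or by upper quartile (0.038 and 0.030), and Hoxa10 also without labelled-positive replicate 2 (adjusted p = 0.0498). Together the pair held 45.2% to 46.9% of the summed Hox RPKM in the labelled-positive libraries and 40.6% to 42.3% in the labelled-negative ones.

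Below these, the order of levels differed between the groups. In the labelled-positive libraries Hoxc6 came next at a mean of 9.91 RPKM, followed by Hoxc9 at 7.02, Hoxa9 at 6.31 and Hoxd8 at 6.14 RPKM, and the library ranges of these last 3 overlapped from each to the next. In the labelled-negative libraries Hoxc6 came next at 12.96 RPKM, followed by Hoxc8 at 6.96, Hoxc9 at 6.86, Hoxa9 at 6.58 and Hoxb9 at 6.15 RPKM, each overlapping the next. Hoxc8 was eighth and Hoxb9 ninth in the labelled-positive libraries, and both had lower means than Hoxd8 and Hoxa7 there. At the low end, 12 members never had 3 libraries at 1 RPKM and rested on 1 to 67 reads per library.

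**Figure D1:**
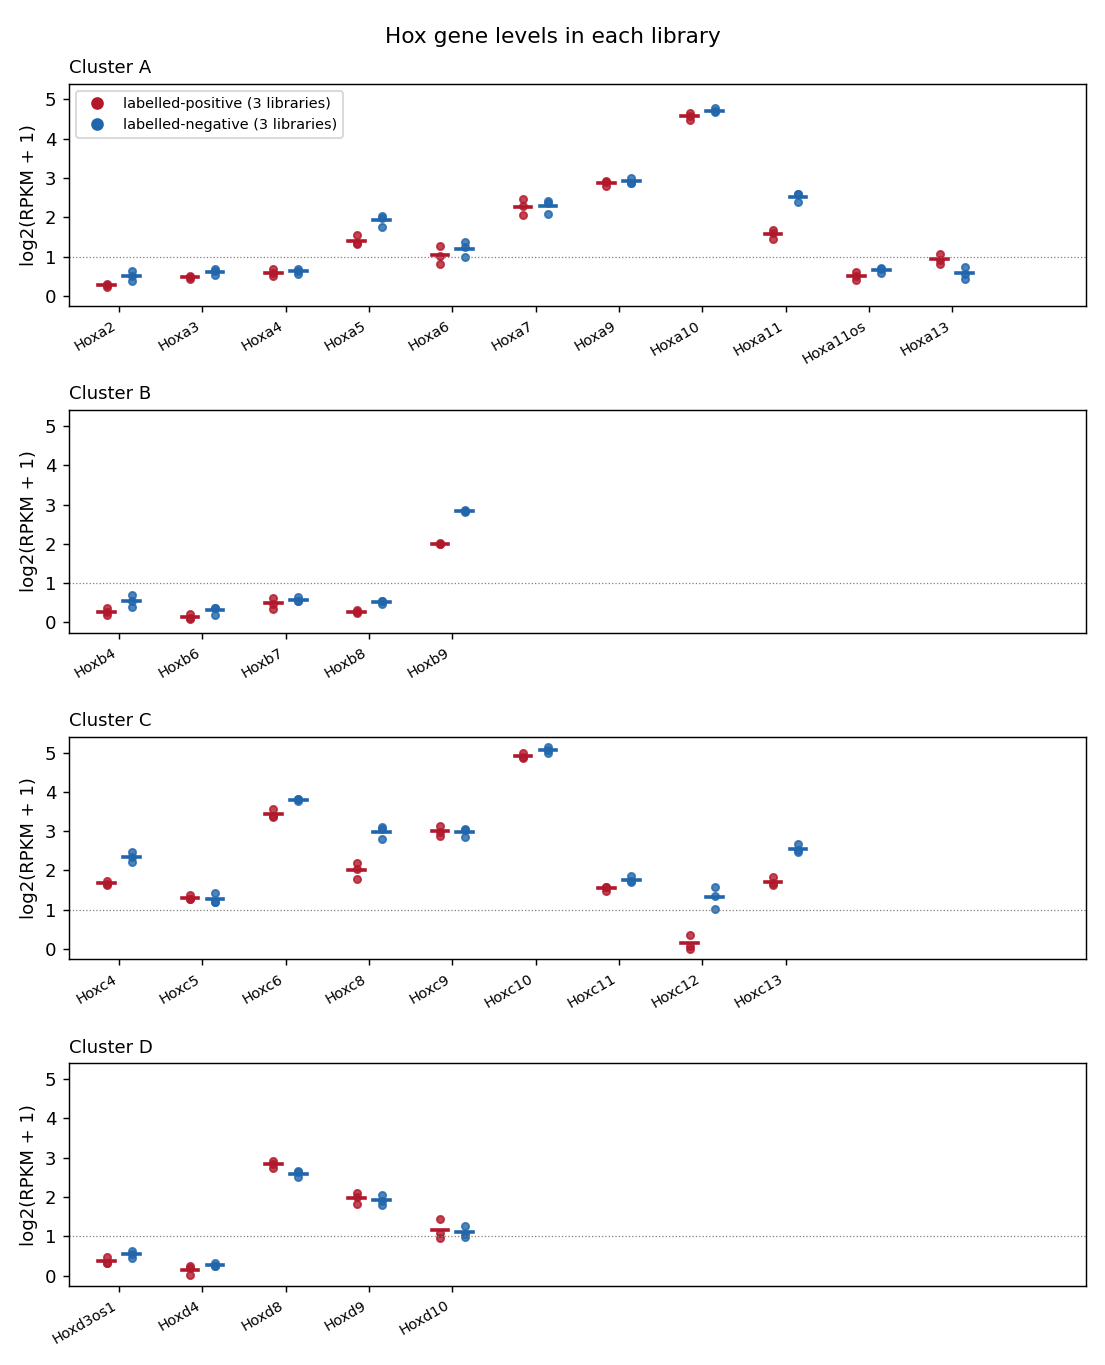
Level of Hox rows as log2(RPKM + 1) in each library, labelled-positive left of labelled-negative, with a bar at the mean of 3 libraries and a dotted line at 1 RPKM. Hoxc10 and Hoxa10 stand highest in both groups. Among the rows whose groups lie apart are Hoxc4, Hoxc8, Hoxc12, Hoxc13, Hoxa11 and Hoxb9 (lower) and Hoxd8 and Hoxa13 (higher). Over all tested genes the groups lay apart for 62.9%.

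Summed over all 31 rows, Hox genes had 111, 117 and 110 RPKM in labelled-positive replicates 1 to 3 and 140, 133 and 144 RPKM in labelled-negative replicates 1 to 3. Cluster C gave 57.0 ± 2.62 RPKM in the labelled-positive libraries, against 73.5 ± 3.59 RPKM in the labelled-negative ones, and cluster A 40.9 ± 1.64 RPKM (labelled-positive) against 47.9 ± 1.36 RPKM (labelled-negative). The 5 rows of cluster B summed to 3.95 ± 0.0821 RPKM (labelled-positive) against 7.78 ± 0.160 RPKM (labelled-negative). With the deposited scaling cluster D went the other way, at 10.8 ± 0.404 RPKM (labelled-positive) against 9.67 ± 0.736 RPKM (labelled-negative) (SD, n = 3 each). It held 9.32% to 9.90% of the Hox total in the labelled-positive libraries, against 6.64% to 7.29% in the labelled-negative ones. Within it Hoxd8 had a mean of 6.14 RPKM (labelled-positive) against 5.06 RPKM (labelled-negative), while Hoxd4 and Hoxd3os1 had lower means in the labelled-positive libraries. With total-read scaling Hoxd9 and Hoxd10 had negative log2 differences and Hoxd8 was not called. By position, paralogs 9 to 13 held 70.7% to 71.3% of the total in the labelled-positive libraries, against 68.9% to 69.0% in the labelled-negative ones, and paralogs 1 to 4 held 4.09% to 4.31% (labelled-positive) against 5.29% to 5.59% (labelled-negative). These sums are descriptions with no test, and they cover only the rows present.

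**Figure D2:**
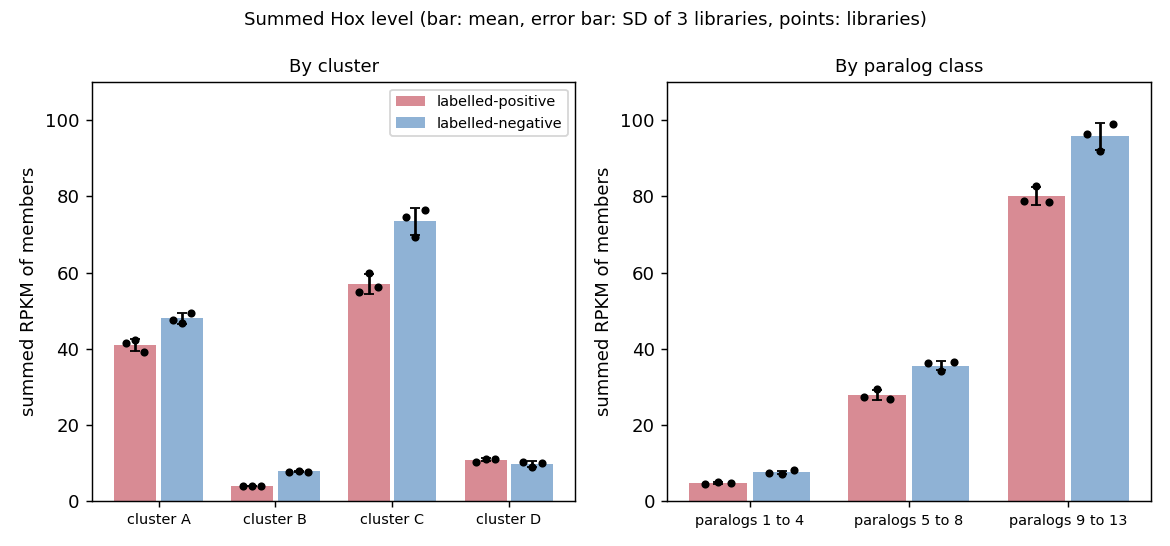
Summed RPKM of the members of each cluster (left) and of each paralog class (right). Bars are means and error bars SD of 3 libraries, with the libraries as points, labelled-positive left of labelled-negative. With the deposited scaling, clusters A, B and C are lower in the labelled-positive libraries and cluster D is not.

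Of the 31 members 19 could be tested. In the labelled-positive libraries 9 were lower, 1 was higher and 9 were not called. Over all genes tested 26.1% were lower and 29.7% higher, 55.9% in all. The groups did not overlap for 10 of the 19 in the lower direction and for 1 in the higher, where the shares over all tested genes were 29.5% and 33.5%, or 62.9% together. Against a 1.5-fold change limma called 4 members lower (Hoxa11, Hoxb9, Hoxc8 and Hoxc12), where 5.00% of all genes were lower and 4.43% higher. Without the filter on low values 14 of the 31 members were lower and 2 higher, where 26.5% of all genes were lower and 25.7% higher. The median difference of the 19 was -0.17, against 0.02 over all genes tested, and the range ran from -1.17 for Hoxc12 to 0.24 for Hoxd8. Of the 19, 16 were at 1 RPKM or more in all 3 labelled-positive libraries, and Hoxc12 passed the filter only through the labelled-negative ones. When libraries were scaled by total reads, 12 members were lower and 0 higher (0 at an unadjusted limma p under 0.05). That scaling moved the differences of all genes by a median of -0.17, and 1877 genes of the table were higher and 5548 lower. Limma voom, run on reads without total-read scaling, gave 1 member higher.

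RefSeq start regions of GRCm38.p6, from 250 bases before the start to 50 after it, were found for 18 members and gave 19 promoters. Those of 3 members that were lower (Hoxa5, Hoxa11 and Hoxc4) and of the one that was higher (Hoxd8) are shown so that the promoters of genes that moved in opposite directions can be read side by side. Each runs 5′ to 3′ along the gene. Both strands were searched for TGATNNAT, which PBX and HOX proteins bind together, and for TGACAG, which MEIS proteins bind. The core promoter words were TATAAA for the TBP protein and CCAAT for the NF-Y complex, and the direct-repeat retinoic acid element was also searched. Matches are in capitals.
Hoxa5, chr6:52204538-52204837, minus strand: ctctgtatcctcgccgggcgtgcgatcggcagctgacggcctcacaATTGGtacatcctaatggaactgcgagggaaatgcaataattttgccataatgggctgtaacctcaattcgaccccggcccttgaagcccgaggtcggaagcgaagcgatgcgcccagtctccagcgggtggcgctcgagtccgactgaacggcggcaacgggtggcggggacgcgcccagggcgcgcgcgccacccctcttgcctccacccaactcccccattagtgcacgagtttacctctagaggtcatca
Hoxa11, chr6:52245761-52246060, minus strand: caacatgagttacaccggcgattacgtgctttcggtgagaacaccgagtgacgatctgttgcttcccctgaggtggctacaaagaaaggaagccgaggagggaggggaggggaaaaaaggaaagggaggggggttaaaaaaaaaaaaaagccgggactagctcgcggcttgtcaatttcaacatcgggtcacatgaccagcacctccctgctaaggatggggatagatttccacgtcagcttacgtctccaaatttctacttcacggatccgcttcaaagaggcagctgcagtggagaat
Hoxc4, chr15:103034145-103034444, plus strand: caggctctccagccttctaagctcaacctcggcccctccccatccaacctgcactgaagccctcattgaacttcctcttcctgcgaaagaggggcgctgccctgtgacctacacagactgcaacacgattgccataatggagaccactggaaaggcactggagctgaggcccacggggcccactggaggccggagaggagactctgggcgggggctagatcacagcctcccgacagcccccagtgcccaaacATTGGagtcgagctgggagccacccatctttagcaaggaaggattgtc
Hoxd8, chr2:74704365-74704664, plus strand: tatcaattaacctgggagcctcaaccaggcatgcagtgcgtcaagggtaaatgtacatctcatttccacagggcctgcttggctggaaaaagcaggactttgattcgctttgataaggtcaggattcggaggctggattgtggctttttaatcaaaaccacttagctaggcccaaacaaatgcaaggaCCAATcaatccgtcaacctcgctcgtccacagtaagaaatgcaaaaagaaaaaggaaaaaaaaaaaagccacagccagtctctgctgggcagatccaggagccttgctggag
The Hoxa5 window held the reverse of CCAAT 204 bases before the start, and that of Hoxd8 held CCAAT 62 bases before it. The Hoxc4 window held the reverse of CCAAT 2 bases after the start, and that of Hoxa11 none of the 5 words. CCAAT was in 10 of the 19 member promoters and in 37.4% of all 32851 promoters, TATAAA in 4 against 13.6%, TGACAG in 3 against 19.2% and TGATNNAT in 2 against 8.85%. The retinoic acid element was in 0.00913% of all promoters and in 0 of the 19. CpG pairs numbered 29 in the Hoxa5 window, 15 in Hoxa11, 9 in Hoxc4 and 6 in Hoxd8, with medians of 14 over the member promoters and 7 over all promoters. A match describes these letters only.

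Cluster C had 6 of its 9 genes lower and 3 not called, where 26.1% of all tested genes were lower and 29.7% higher. The lower ones lay at both ends of the cluster and in between. The largest ratio was that of Hoxc12 (chromosome 15, 102936757 to 102938609), one of the last genes of the cluster. It had 0, 0.0584 and 0.292 RPKM in the labelled-positive libraries, from 0, 1 and 5 reads, against 1.56, 1.98 and 1.04 RPKM in the labelled-negative ones, from 30, 38 and 20 reads. Each labelled-positive library lay well below each labelled-negative one, with a mean 13.1-fold lower (log2 difference -1.17, SE 0.15, adjusted p = 2.6e-04). Hoxc12 passed the filter only through the labelled-negative libraries, so that the filter fixed its direction and the call is no support for it. Hoxc13 (chromosome 15, 102921103 to 102928814), the terminal gene of the cluster and known for its part in hair and nail formation, had 2.54, 2.20 and 2.08 RPKM in the labelled-positive libraries, against 4.78, 4.52 and 5.32 RPKM in the labelled-negative ones. It was 2.14-fold lower without overlap (log2 difference -0.84, SE 0.08, adjusted p = 4.4e-05). Hoxc11, a hindlimb gene, had 1.805, 2.00 and 1.97 RPKM in the labelled-positive libraries, against 2.60, 2.34 and 2.29 RPKM in the labelled-negative ones, 1.25-fold lower (log2 difference -0.22, SE 0.07, adjusted p = 0.022). This call was lost without labelled-negative replicate 1 (adjusted p = 0.093), without labelled-positive replicate 3 (0.052) and with limma voom on reads (0.059).

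In the middle of cluster C lower genes stood beside genes without a call. Hoxc8 (chromosome 15, 102990607 to 102994111), which sets the identity of thoracic vertebrae, had 3.09, 3.55 and 2.45 RPKM in the labelled-positive libraries, against 7.60, 5.94 and 7.34 RPKM in the labelled-negative ones. It was 2.30-fold lower with the groups far apart (log2 difference -0.98, SE 0.12, adjusted p = 2.0e-04). Its direct neighbour Hoxc9, also a gene of the thoracic region, had 6.38, 6.94 and 7.74 RPKM in the labelled-positive libraries, against 7.25, 6.19 and 7.14 RPKM in the labelled-negative ones. Those groups overlapped fully, with a log2 difference of 0.03 (SE 0.08, adjusted p = 0.79). Hoxc6, a gene of the forelimb level and the upper trunk, had 9.52, 10.9 and 9.31 RPKM in the labelled-positive libraries, against 13.02, 12.7 and 13.2 RPKM in the labelled-negative ones, and was 1.31-fold lower (log2 difference -0.36, SE 0.07, adjusted p = 0.0022). Hoxc5 was at 1.47 ± 0.115 RPKM in the labelled-positive libraries, against 1.42 ± 0.216 RPKM in the labelled-negative ones, and was not called (adjusted p = 0.77). On the same strand it shares 166 of its exon bases (5.37%) with Hoxc10, the highest Hox gene. Hoxc5 rested on 71, 72 and 82 reads (labelled-positive) and 75, 96 and 74 reads (labelled-negative). How many of these lay in the shared stretch is not known. Hoxc4 (chromosome 15, 103018934 to 103036852), the first gene of the cluster, had 2.08, 2.32 and 2.13 RPKM in the labelled-positive libraries, against 4.03, 3.64 and 4.52 RPKM in the labelled-negative ones, and was 1.86-fold lower without overlap (log2 difference -0.67, SE 0.08, adjusted p = 1.6e-04). Of the values by library given here, those of Hoxc4, Hoxc6, Hoxc8, Hoxa2, Hoxa5 and Hoxa13 were chosen after their values were seen.

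In cluster A 2 of 6 tested genes were lower and the other 4 were not called, where 26.1% of all tested genes were lower and 29.7% higher. Hoxa11 (chromosome 6, 52242106 to 52245810, minus strand), which shapes the middle limb segment, had 2.18, 2.05 and 1.71 RPKM in the labelled-positive libraries, against 5.00, 4.204 and 4.98 RPKM in the labelled-negative ones. It was 2.38-fold lower and the groups did not overlap (log2 difference -0.94, SE 0.09, adjusted p = 3.9e-05). The gene shares 35.0% of its exon bases with the antisense gene Hoxa11os, and since no source used here says whether strand was used in counting, reads from that stretch cannot be assigned to one of the pair. Hoxa11os itself was low, at 27, 21 and 16 reads in the labelled-positive and 29, 36 and 35 reads in the labelled-negative libraries. Hoxa5, which is needed for the lung and the lower neck skeleton, had 1.91, 1.54 and 1.51 RPKM in the labelled-positive libraries, against 3.12, 2.35 and 2.95 RPKM in the labelled-negative ones, 1.70-fold lower (log2 difference -0.52, SE 0.10, adjusted p = 0.0026). Hoxa9, known from blood cell and trunk development, had 6.61, 6.44 and 5.90 RPKM (labelled-positive) against 7.06, 6.30 and 6.38 RPKM (labelled-negative), and the groups overlapped (log2 difference -0.05, SE 0.07, adjusted p = 0.53). With total-read scaling it was called lower (log2 difference -0.23, adjusted p = 0.017). Hoxa7 was at 3.84 ± 0.646 RPKM (labelled-positive) against 3.88 ± 0.576 RPKM (labelled-negative) and Hoxa6 at 1.06 ± 0.317 RPKM (labelled-positive) against 1.31 ± 0.309 RPKM (labelled-negative) (SD, n = 3 each), both without a call.

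Among the lowest genes of cluster A was Hoxa13, which patterns the hand and foot and did not pass the filter. It had 1.08, 0.877 and 0.756 RPKM in the labelled-positive libraries, from 44, 36 and 31 reads, against 0.652, 0.478 and 0.348 RPKM in the labelled-negative ones, from 30, 22 and 16 reads. All 3 labelled-positive values lay above all 3 labelled-negative ones, opposite to its neighbour Hoxa11 and to its paralog Hoxc13. In a fit of all genes without the filter Hoxa13 was called higher (log2 difference 0.35, SE 0.09, adjusted p = 0.014), with a mean 1.84-fold higher.

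Hoxa2, Hoxa3 and Hoxa4, active in the hindbrain and neck of the embryo, were below the filter. Hoxa4 was at 0.505 ± 0.0934 RPKM (labelled-positive) against 0.539 ± 0.0673 RPKM (labelled-negative) and Hoxa3 at 0.389 ± 0.0354 RPKM (labelled-positive) against 0.539 ± 0.0743 RPKM (labelled-negative). In the fit without the filter Hoxa3 and Hoxa4 were not called. Hoxa2 had 0.206, 0.238 and 0.170 RPKM in the labelled-positive libraries, against 0.544, 0.303 and 0.424 RPKM in the labelled-negative ones, from 5 to 18 reads. Its groups did not overlap, and that fit called it lower (log2 difference -0.24, SE 0.07, adjusted p = 0.017).

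In cluster B one gene stood out. Hoxb9 (chromosome 11, 96271457 to 96276595), a gene of the thoracic level that also takes part in placing the forelimb, had 3.07, 3.00 and 3.00 RPKM in the labelled-positive libraries, against 6.13, 6.30 and 6.01 RPKM in the labelled-negative ones. The replicates were very close within each group, the mean was 2.03-fold lower and the adjusted p of 4.1e-06 was the lowest of the tested Hox genes (log2 difference -0.83, SE 0.05). The other 4 cluster B genes were below the filter. Hoxb4, a regulator of blood stem cells, had 12, 9 and 6 reads in the labelled-positive and 15, 30 and 22 reads in the labelled-negative libraries. Hoxb8 had 8, 9 and 11 reads (labelled-positive) against 19, 22 and 23 reads (labelled-negative). Hoxb6 had 5, 2 and 3 reads (labelled-positive) against 11, 5 and 11 reads (labelled-negative). Hoxb7 had 7, 10 and 14 reads (labelled-positive) against 16, 13 and 13 reads (labelled-negative). In the limma fit without the filter Hoxb4, Hoxb6 and Hoxb8 were called lower (adjusted p = 0.025, 0.047 and 0.0031), though the groups of Hoxb6 overlapped.

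Cluster D held the only tested Hox gene called higher. Hoxd8 (chromosome 2, 74704615 to 74707933) had 6.20, 6.61 and 5.62 RPKM in the labelled-positive libraries, against 5.30, 4.72 and 5.17 RPKM in the labelled-negative ones. The groups did not overlap, but the change was small, 1.21-fold higher (log2 difference 0.24, SE 0.07, adjusted p = 0.022). The call was lost without labelled-positive replicate 2 (adjusted p = 0.077), without labelled-negative replicate 2 (0.083) and with total-read scaling (0.46). Hoxd9 had 2.56, 3.02 and 3.33 RPKM (labelled-positive) against 2.71, 2.49 and 3.17 RPKM (labelled-negative), and Hoxd10 1.10, 0.929 and 1.69 RPKM (labelled-positive) against 1.39, 0.976 and 1.09 RPKM (labelled-negative). Both genes take part in patterning the upper limb and lower trunk, and both overlapped between the groups (log2 differences 0.07, SE 0.10, and 0.05, SE 0.13). Below the filter, Hoxd4 had 9, 7 and 1 reads in the labelled-positive libraries, against 14, 10 and 10 reads in the labelled-negative ones, and shares 52.3% of its exon bases with other genes. The antisense gene Hoxd3os1 had 12, 18 and 12 reads (labelled-positive) against 29, 25 and 20 reads (labelled-negative) and was called lower without the filter (adjusted p = 0.046).

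**Figure D3:**
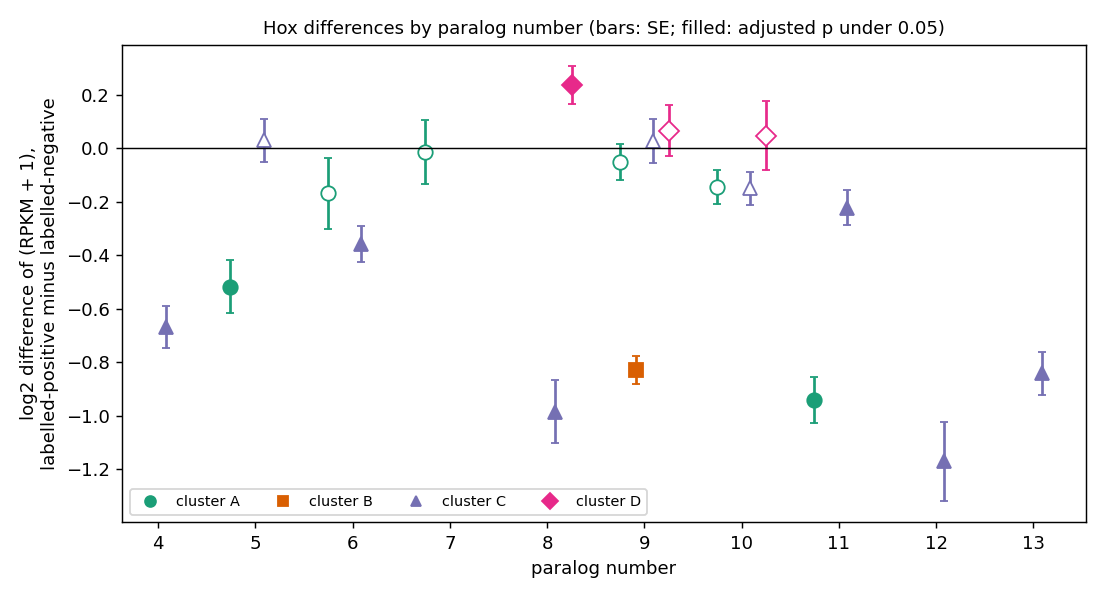
Difference in log2(RPKM + 1), labelled-positive minus labelled-negative, for the 19 tested Hox genes against paralog number, with SE. Filled symbols have an adjusted p under 0.05. Cluster C genes of numbers 4, 6, 8, 11, 12 and 13, cluster A genes of numbers 5 and 11 and Hoxb9 lie below 0, and Hoxd8 lies above.

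Read by position, differences did not follow the paralog number alone. Of paralogs 5 to 8, 3 of 7 tested genes were lower and 1 higher, and of paralogs 9 to 13, 5 of 11 were lower, with medians of -0.17 and -0.15. Among all tested genes 26.1% were lower and 29.7% higher, 55.9% in all, so these counts alone show no pattern by position. Hoxc4 was the only tested gene of paralogs 1 to 4. Both tested genes of group 11 and the single tested genes of groups 12 and 13 were lower. That of group 12, Hoxc12, passed the filter only through the labelled-negative libraries. Of group 9, Hoxb9 was lower and the other 3 were not called, and group 10, with the highest levels, held no larger difference than that of Hoxc10. Of the 25 pairs of coding members that share a paralog number, 1 pair, Hoxb9 and Hoxc9, had a stretch of 50 exon bases in common, and it was a single such stretch. Of the 31 members, 18 shared no exon bases with another annotated gene, and the called members other than Hoxa11 were among them.

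The clusters also hold non-coding genes. Of 16 listed, 7 had a row and 4 could be tested, of which 2 were lower, both next to Hoxb9. Among all tested genes 26.1% were lower and 29.7% higher, 55.9% in all. Mir196a-1 (chromosome 11, 96265164 to 96265265, plus strand), whose hairpin gives a miRNA known to repress Hox messages, had 1.19, 0 and 1.18 RPKM in the labelled-positive libraries, from 2, 0 and 2 reads, against 8.42, 5.27 and 7.37 RPKM in the labelled-negative ones, from 16, 10 and 14 reads. The groups lay apart (log2 difference -2.23, SE 0.30, adjusted p = 3.6e-04). These few reads lie on the hairpin stretch, and such mRNA libraries do not measure the mature miRNA. Mir196a-2, in cluster C, gives the same mature miRNA, and Mir196b, in cluster A, gives one with the same seed. Neither of these hairpins had a row. Gm53, a non-coding gene, had 0.932, 0.999 and 1.14 RPKM in the labelled-positive libraries, against 2.94, 2.90 and 2.60 RPKM in the labelled-negative ones, 2.75-fold lower without overlap (log2 difference -0.92, SE 0.07, adjusted p = 1.3e-05). Neither Mir196a-1 nor Gm53 had 3 labelled-positive libraries at 1 RPKM, so both passed the filter only through the labelled-negative ones. Their calls are thus no support for genes lower side by side with Hoxb9.

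The mature sequence is shown with its seed, bases 2 to 8, in capitals, because Hox messages are among its known targets, with stretches of 4 Hox messages that hold the letters pairing with the seed, also in capitals.
mmu-miR-196a-5p: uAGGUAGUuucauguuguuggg
Hoxc8: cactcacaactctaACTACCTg
Hoxa5: atatttttattcaaACTACCTa
Hoxa7: actactagccctaaACTACCTa
Hoxa9: caaaaggaaagaaaACTACCTt
The letters ACTACCT occurred in the longest annotated 3′UTR of 8 of the 29 coding members (27.6%) and of 6.80% of 21166 coding genes, where median lengths were 878 and 1084.5 bases. They included Hoxa4, Hoxa5, Hoxa7, Hoxa9, Hoxb6, Hoxb7 and Hoxc8, with 4 matches in Hoxa7 and 2 in Hoxc8. Of these, Hoxa5 and Hoxc8 were lower in the labelled-positive libraries, and Hoxa7 and Hoxa9 were not called. The other 7 lower members, Hoxa11, Hoxb9, Hoxc4, Hoxc6, Hoxc11, Hoxc12 and Hoxc13, held no match.

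Hox proteins bind DNA together with partners of the PBX, MEIS and PREP families. Of 9 partner genes 7 could be tested, and in the labelled-positive libraries 3 were lower and 1 was higher, with a median difference of -0.04. Among all tested genes 26.1% were lower and 29.7% higher, 55.9% in all. Without labelled-positive replicate 1, 2 were higher. Pbx3 was at 4.35 ± 0.199 RPKM (labelled-positive) against 8.60 ± 0.223 RPKM (labelled-negative), 1.98-fold lower (adjusted p = 5.0e-06), and Meis2 at 1.08 ± 0.0715 RPKM (labelled-positive) against 1.88 ± 0.136 RPKM (labelled-negative), 1.74-fold lower (adjusted p = 5.3e-04). Pknox2 was at 2.25 ± 0.0998 RPKM (labelled-positive) against 1.66 ± 0.196 RPKM (labelled-negative), 1.36-fold higher (adjusted p = 0.011; not called with total-read scaling). Pbx2, Meis3 and Pknox1 were not called, and Pbx4 and Meis1 were below the filter. The partners were named after their values were seen.

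Retinoic acid is the classical inducer of Hox genes, and Polycomb and trithorax proteins keep them off or on. Of 40 such genes listed, 35 were tested, with 8 higher, 12 lower and 15 not called in the labelled-positive libraries and a median of -0.07, shares near the 29.7% higher and 26.1% lower of all tested genes. Scaling by total reads gave 5 higher and 18 lower, and 7 were lower without labelled-negative replicate 2. The largest differences were in retinoid handling. Cyp26b1, which breaks down retinoic acid, was at 32.9 ± 1.74 RPKM (labelled-positive) against 7.52 ± 0.216 RPKM (labelled-negative), 4.38-fold higher (log2 difference 1.99, SE 0.06, adjusted p = 4.3e-08), and Crabp2, which carries retinoic acid to its receptors, was at 7.92 ± 1.64 RPKM (labelled-positive) against 2.42 ± 0.417 RPKM (labelled-negative), 3.27-fold higher (log2 difference 1.37, SE 0.14, adjusted p = 6.3e-05). Crabp1, another cellular carrier, was at 1.71 ± 0.234 RPKM (labelled-positive) against 21.9 ± 4.50 RPKM (labelled-negative), 12.9-fold lower (log2 difference -3.07, SE 0.13, adjusted p = 4.6e-07).

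Most limb position factors tested were lower. Of 19 listed, 17 were tested, with 13 lower, 2 higher and 2 not called in the labelled-positive libraries and a median of -0.68, where 26.1% of all tested genes were lower and 29.7% higher. Against a 1.5-fold change 8 were lower, and 1 was higher with total-read scaling or without labelled-negative replicate 2 or labelled-positive replicate 2 or 3. En1, a mark of ventral limb ectoderm and some dermal cells in the embryo, was at 0.483 ± 0.164 RPKM (labelled-positive) against 5.73 ± 0.409 RPKM (labelled-negative), 11.9-fold lower, and was tested only because of its level in the labelled-negative libraries. Tbx5, the forelimb factor, was at 0.957 ± 0.141 RPKM (labelled-positive) against 4.51 ± 0.0581 RPKM (labelled-negative), 4.71-fold lower. It had fewer than 3 labelled-positive libraries at 1 RPKM and passed the filter only through the labelled-negative ones. So did Hand2, which is counted among the 13 lower. Tbx4, the hindlimb factor, was at 7.71 ± 0.399 RPKM (labelled-positive) against 20.4 ± 0.835 RPKM (labelled-negative), 2.65-fold lower. Lmx1b, of the dorsal limb, was 3.41-fold lower, Shox2, of the upper limb segment, 2.97-fold, Emx2, needed for the shoulder blade, 2.46-fold, and Tbx18 2.41-fold, the highest limma adjusted p among these genes being 6.9e-06. Msx2 and Prrx2 were the 2 called higher, at 1.69-fold and 1.23-fold.

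Genes that flank the clusters were also listed. Of 28 listed, 19 were tested, with 7 higher, 2 lower and 10 not called in the labelled-positive libraries and a median of 0.12, where 29.7% of all tested genes were higher and 26.1% lower. Of the 7, Atp5g1, Atp5g2 and Atp5g3 encode the same subunit of ATP synthase. Scaling by total reads gave 2 higher and 6 lower, and 4 were higher and 1 lower without labelled-negative replicate 1 or labelled-positive replicate 2. Without labelled-negative replicate 2 or 3 or labelled-positive replicate 3 also 1 was lower. Beside cluster B, all 3 flanking genes tested were higher, namely Cdk5rap3 at 17.6 ± 1.64 RPKM (labelled-positive) against 12.6 ± 0.340 RPKM (labelled-negative), Atp5g1 at 7.46 ± 0.906 RPKM (labelled-positive) against 5.00 ± 0.673 RPKM (labelled-negative) and Snf8 at 13.4 ± 1.00 RPKM (labelled-positive) against 10.4 ± 0.587 RPKM (labelled-negative), while Hoxb9 was lower. Beside cluster C, where 6 Hox genes were lower, Atp5g2, Cbx5 and Copz1 were higher and the other 3 tested were not called. Whether flanking genes and cluster members differed from each other was not tested.

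**Figure D4:**
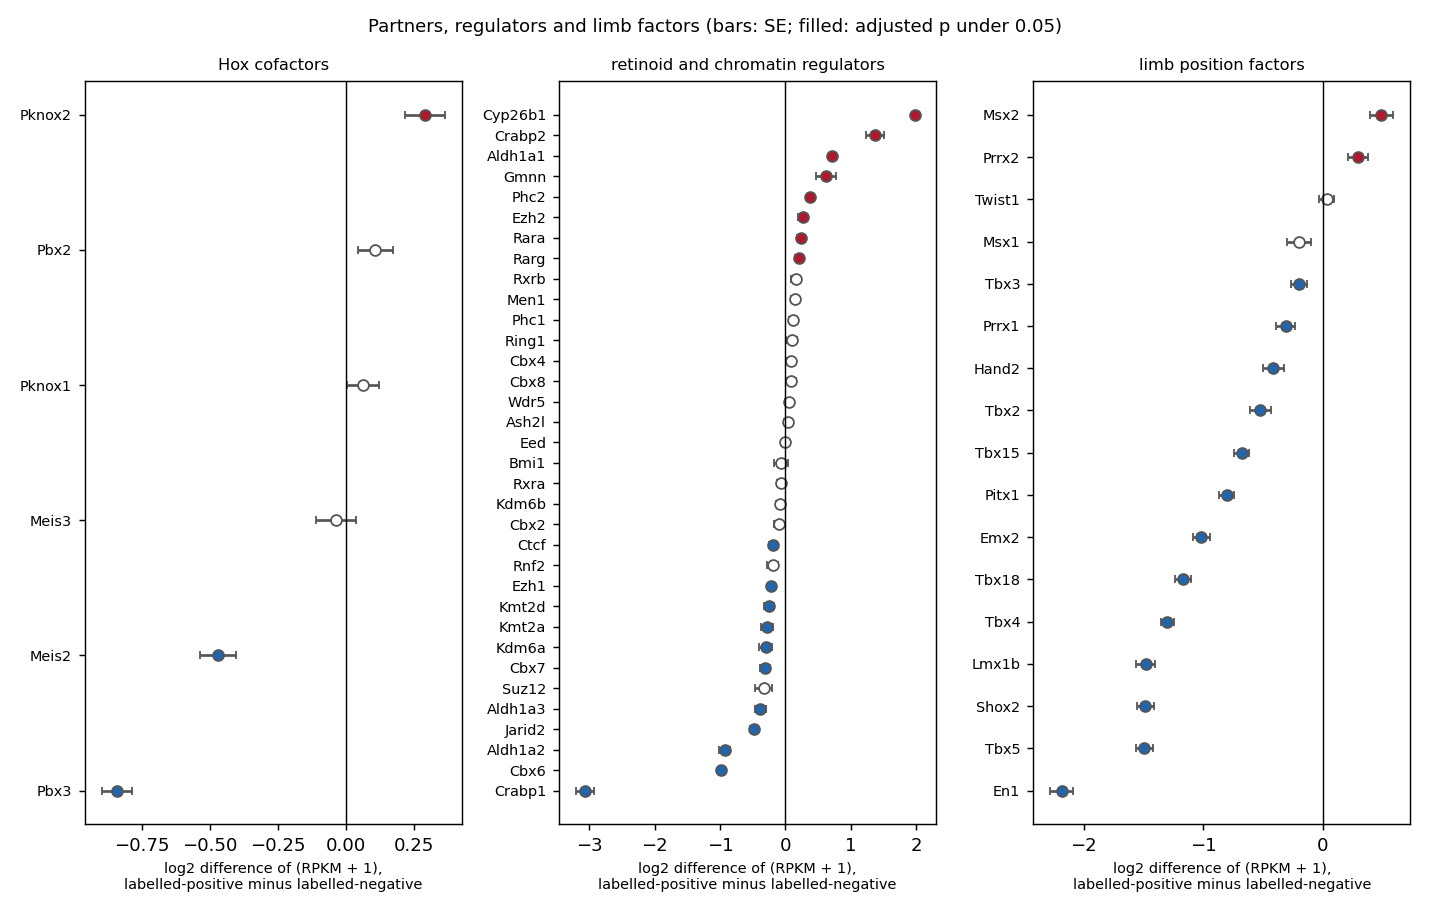
Difference in log2(RPKM + 1), labelled-positive minus labelled-negative, with SE, for tested genes in the lists of partners (left), retinoid and chromatin regulators (middle) and limb position factors (right), with a panel scale each. Filled points have an adjusted p under 0.05, and Crabp1 (-3.07), Cyp26b1 (1.99) and En1 (-2.19) lie farthest from 0.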

How the data were processed

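RNA of 6 mouse cell libraries was sequenced, and the authors deposited 1 table of RPKM values per gene and library. RNA was extracted with Trizol and made into libraries with a SMARTER mRNA-Seq kit, per the labels' protocols. The build was mm10 and the tools named were Cell Ranger and bcl2fastq 1.8.4, per the submitters' processing notes; how reads were counted, and whether by strand, is not given in the sources used here. Dividing by GENCODE M21 exon lengths gave whole reads within 0.01 for 15690 of 15691 genes with a length (20 genes had none), and totals of 17660241 to 17719560 reads per labelled-positive and 17280540 to 17348846 per labelled-negative library, where 1 read in a 1 kb gene was 0.0602 to 0.0608 and 0.0537 RPKM. Low genes therefore have a large counting error.

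Groups were compared with limma 3.58.1 (trend and robust, statmod 1.5.0, R 4.3.3) on log2(RPKM + 1) over genes with at least 1 RPKM in at least 3 libraries, with Benjamini-Hochberg adjustment over all 12116. The procedure was tested on simulated data. Alternatives changed the pseudocount (0.1), the filter (5 RPKM, or none), the scaling, the test (limma voom on whole reads, or a test against a 1.5-fold change), the replicate block, or left out 1 library. Values in every library were given for members with a called log2 difference of 1 or more, the highest of each cluster, and paralogs 9 to 13 at 1 RPKM or more. From the lists, called genes with a difference of 1 or more on the log2 scale (2-fold in the limb and non-coding lists) were named. The members and lists were chosen with earlier results of these data known. A few listed genes count in the totals but are not reported here.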

Additional observations from a re-analysis of the deposited data

How the results depend on the processing

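The 10 called Hox genes kept their direction under every alternative run that gave a value, and 5 genes without a call turned in sign. Total-read scaling gave log2 differences of -0.088 for Hoxc5, -0.148 for Hoxc9, -0.084 for Hoxd9 and -0.061 for Hoxd10 (0.03, 0.03, 0.07 and 0.05 with the scaling used), and upper-quartile scaling gave -0.00091 for Hoxc9. Leaving out 1 library gave -0.114 to 0.086 for Hoxa7, -0.0084 to 0.103 for Hoxc5, -0.035 to 0.087 for Hoxc9 and -0.091 to 0.149 for Hoxd10. Total-read scaling left 0 Hox genes higher (0 at an unadjusted p under 0.05 in limma) and 12 lower. Limma voom, run with the library sizes behind the RPKM values and not with total reads, left 1 Hox gene higher. Total-read scaling moved the table to 1877 genes higher and 5548 lower, against 3602 and 3167. It gave 0 partners higher (0 unadjusted), 5 regulators higher, and 2 flanking genes higher and 6 lower. Against a 1.5-fold change limma called 0 Hox genes higher (0 unadjusted, 1 with limma voom against no change) and 4 lower (Hoxa11, Hoxb9, Hoxc8 and Hoxc12), 537 genes of the table higher and 606 lower, 0 partners higher and 1 lower, 2 regulators higher and 4 lower, and 0 flanking genes either way (0 unadjusted). With a filter of 5 RPKM 3 Hox genes of 8, 1800 genes of the table and 4 regulators were lower and 0 partners higher (0 unadjusted). Without a filter 2 Hox genes of 31 were higher and 14 lower (25.7% and 26.5% over the table), and 1 flanking gene was lower. The test against a 1.5-fold change asks for more than a difference from 0, and the filters change which genes are tested; the cause of the other changes was not tested.

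Leaving out 1 library gave 2830 to 4103 genes higher and 2415 to 3754 lower, 0 to 1 Hox genes higher (0 without labelled-negative replicate 2 or labelled-positive replicate 2, 1 each unadjusted) and 8 to 10 lower, 1 to 2 partners higher and 3 lower, 7 to 10 regulators higher and 7 to 15 lower (7 without labelled-negative replicate 2), and 4 to 7 flanking genes higher and 1 to 3 lower. Deviations of same-numbered libraries had correlations of 0.30, -0.06 and 0.31, against -0.39 to 0.26 for libraries of different number. Whether the numbers stand for pairs cannot be told from these values, and they were not taken as pairs. With the replicate block the table had 3738 genes higher and 3315 lower, against 3602 and 3167 without it, and Hox genes 1 and 9. Low members, at 1 to 67 reads per library, limit what could be detected.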

Other observations

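Non-coding genes inside the clusters that were not called, or were below the filter, are given here as values. Hotairm1, in cluster A, was at 1.30 ± 0.150 RPKM in the labelled-positive libraries, against 1.57 ± 0.366 RPKM in the labelled-negative ones (SD, n = 3 each), and Gm15050 in cluster A was at 4.82 ± 0.355 RPKM (labelled-positive) against 4.02 ± 0.489 RPKM (labelled-negative). Hotair, in cluster C, rested on 4, 4 and 4 reads in the labelled-positive and 5, 12 and 10 reads in the labelled-negative libraries. Hoxaas2 was at 0.192 ± 0.0584 RPKM (labelled-positive) against 0.346 ± 0.0936 RPKM (labelled-negative) and Hoxaas3 at 0.126 ± 0.0209 RPKM (labelled-positive) against 0.211 ± 0.0568 RPKM (labelled-negative), all 3 below the filter. In the limma fit without the filter Hoxaas2 was called lower (log2 difference -0.17, adjusted p = 0.049), and Hotair and Hoxaas3 were not (adjusted p = 0.068 and 0.085).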
